A study of Mus musculus with 8 samples.

Results

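The sterol and lipid synthesis genes described here are 33 genes of cholesterol synthesis, fatty acid synthesis, sterol movement and their control by the SREBP transcription factors. They were chosen by gene symbol, and every array probe named for one of them was taken. Of the 33 genes 28 had a probe, 39 probes in all among the 25697 on the array. No probe named for Acat2, Mvk, Fdft1, Npc1 or Soat1 was analysed here. Of the 39 probes 33, from 26 genes, were above background (detection p below 0.05) on at least 4 of the 8 arrays and were tested.

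The RNA came from LbetaT2 cells, a mouse pituitary cell line of the gonadotrope lineage that was immortalised by a targeted oncogene. After 16 h without serum, one group of cells received gonadotropin-releasing hormone (GnRH), the hypothalamic hormone that drives gonadotropes, and the other received vehicle, each for 30 min, with 4 arrays per group. In both groups 5 µg of antibody was used to pull down ELAVL1 (HuR), a protein that binds messenger RNAs rich in A and U, and the bound RNA was measured on Illumina mouse bead arrays. A value is thus the amount of a transcript in the pull-down, in which a change of the transcript in the cell and a change of its binding cannot be told apart without RNA from before the pull-down, which was not analysed here. The labels do not say whether replicates were separate cultures, so p-values measure only the spread between these arrays, which may be technical. The median raw bead signal per array lay between 33.4 and 42.1, and 10802 to 11663 probes per array were above background. Vehicle replicate 4 was the dimmest array, with a mean raw signal of 142 against 203 to 255 on the other arrays. Of 7 gonadotrope markers Cga, Gnrhr, Pitx1 and Foxl2 were above background on all 8 arrays and Nr5a1 on 4, while Lhb and Fshb were above background on 0. Of the other marker lists, 0 of 5 genes of other pituitary lineages, 0 of 2 of blood and 0 of 3 of steroid-making cells were above background on all 8 arrays, and of 4 stromal and endothelial genes Pecam1 and Cdh5 were.

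Cholesterol is made from acetyl-CoA through mevalonate, farnesyl pyrophosphate, squalene and lanosterol. When sterols run low in the membrane of the endoplasmic reticulum, the escort protein SCAP carries SREBP to the Golgi, where proteases free the part that enters the nucleus and switches on the genes of the pathway. INSIG1 and INSIG2 hold SCAP and SREBP back when sterols are plentiful, and Insig1 is itself an SREBP target, so its transcript is a common readout of SREBP activity. In endocrine cells the same lipids supply the membranes of secretory granules.

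The promoters of 4 of these genes are shown. Insig1, Nsdhl and Cyp51 were chosen because some of their probes varied together between arrays. Other genes with like variation, such as Ebp and Insig2, are not shown. Hmgcs1 was chosen because, among the genes with a promoter window, it alone held the exact sterol element searched for. SREBP acts at such elements, but whether it had a part in the shared variation was not tested. Each line gives the 250 bases before the gene's start from RefSeq (GRCm38.p6), 5′ to 3′ on the gene's strand (plus for Insig1, Nsdhl and Hmgcs1, minus for Cyp51), with motif matches in capitals.
Insig1, chr5:28071162-28071411: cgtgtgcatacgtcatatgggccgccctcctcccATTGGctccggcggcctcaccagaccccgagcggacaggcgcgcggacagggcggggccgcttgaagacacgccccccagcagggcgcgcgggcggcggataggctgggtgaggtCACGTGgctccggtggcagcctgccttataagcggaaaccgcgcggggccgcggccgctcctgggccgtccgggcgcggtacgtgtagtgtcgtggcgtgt
Cyp51, chr5:4104698-4104947: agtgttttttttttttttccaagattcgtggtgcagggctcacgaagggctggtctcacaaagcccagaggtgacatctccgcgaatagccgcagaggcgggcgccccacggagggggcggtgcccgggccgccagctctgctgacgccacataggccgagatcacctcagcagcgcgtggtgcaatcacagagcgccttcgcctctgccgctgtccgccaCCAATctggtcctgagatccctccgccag
Nsdhl, chrX:72918271-72918520: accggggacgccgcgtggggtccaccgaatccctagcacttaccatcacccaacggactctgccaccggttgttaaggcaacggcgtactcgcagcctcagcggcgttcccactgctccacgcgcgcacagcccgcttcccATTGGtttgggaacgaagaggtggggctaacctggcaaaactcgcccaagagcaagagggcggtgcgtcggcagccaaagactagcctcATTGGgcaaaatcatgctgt
Hmgcs1, chr13:119690101-119690350: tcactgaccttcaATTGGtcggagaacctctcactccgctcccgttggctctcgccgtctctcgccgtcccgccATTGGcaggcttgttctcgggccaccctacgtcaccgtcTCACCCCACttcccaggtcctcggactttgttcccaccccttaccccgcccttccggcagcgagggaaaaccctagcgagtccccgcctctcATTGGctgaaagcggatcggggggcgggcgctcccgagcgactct
The motifs searched for, on both strands, were the sterol element TCACNCCAC, the E-box CACGTG and the NF-Y box CCAAT, which reads ATTGG on the other strand; no 2 of them overlapped in these windows. Hmgcs1 held the sterol element 137 bases before its start and Insig1 an E-box 101 bases before its start. Promoter windows were found for 25 of the 33 genes, 33 windows in all. CCAAT occurred in 23 of these 33 windows (69.7%), against 33.8% of all 32851 promoter windows of that length. The E-box occurred in 5 (15.2%) against 6.02% of all windows, and the sterol element in 1 (3.03%) against 1.05%. A match is a description of the letters and not a binding site. Looser forms of the sterol element were not searched for, so a window without a match may still hold one.

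No sterol or lipid synthesis gene passed the test for a change in the ELAVL1 pull-down 30 min after GnRH. Of 33 tested probes 0 were higher and 0 lower (limma, Benjamini-Hochberg adjusted p below 0.05 over all 11318 tested probes), where 0.265% of all tested probes were called higher and 0.0% lower. At an unadjusted p below 0.05 in the same limma fit 2 of the 33 were higher, Scarb1 and Pmvk, and 0 were lower, against 2.09% and 0.813% of all tested probes. The median log2 change of the 33 probes was 0.13, beside -0.01 over all tested probes, and 25 of the 33 changes were positive (75.8%), beside 48.1% over all tested probes. This median was 0.03 without vehicle replicate 3, 0.04 without GnRH replicate 1, 0.05 without vehicle replicate 2 and 0.08 without GnRH replicate 4. It was 0.10 without vehicle replicate 4, 0.12 without GnRH replicate 2, and 0.17 without GnRH replicate 3 or without vehicle replicate 1. Of the 33 probes 20 turned sign under some setting. The 95% interval of the log2 change stayed within 1 in both directions, that is within a 2-fold change, for 24 of the 33 probes (72.7%) and for 93.9% of all tested probes. The 9 probes whose interval reached a 2-fold change belonged to 5 genes, namely Insig1, Nsdhl, Lss, Pmvk and Scarb1. For scale, Egr1 and Fos, early genes known to answer GnRH, were higher by 3.80 ± 0.19 and 4.30 ± 0.27 on the log2 scale (SE, n = 4 per group, limma adjusted p = 2.57e-06 and 2.36e-05).

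**Figure D1:**
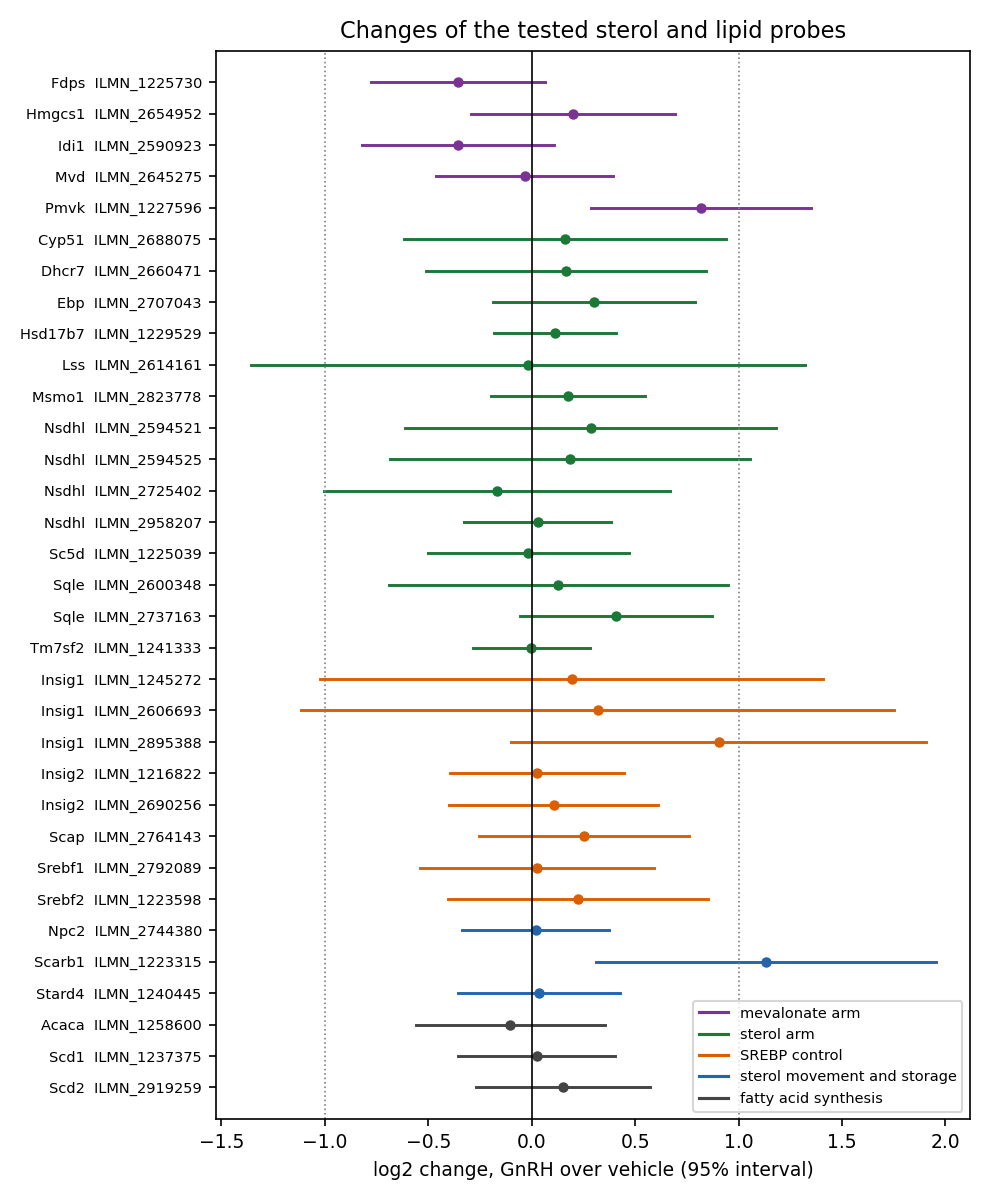
Log2 change, GnRH over vehicle, of each tested sterol and lipid probe (points) with its 95% interval from limma (lines), coloured by role, 4 arrays per group. The intervals of Pmvk and Scarb1 lie above 0 before adjustment, and those of all 3 Insig1 probes cross 0 and reach past 1.

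Insig1, the feedback brake on SREBP, had 4 probes, of which 3 were tested. The brightest, ILMN_2895388, read a raw bead signal of 2901, 2053, 2068 and 1698 on GnRH arrays 1 to 4, against 2438, 475, 896 and 1122 on vehicle arrays 1 to 4. The GnRH arrays lay close together, and the vehicle arrays reached from the lowest signal of the probe to near its highest, so that the groups overlapped. After normalization vehicle arrays 1 to 4 read 11.17, 8.66, 9.73 and 10.83 on the log2 scale, against 10.83 to 11.22 on the GnRH arrays. Vehicle replicates 1 and 4 thus lay at or near the level of the GnRH arrays. On that scale the probe averaged 11.00 ± 0.16 in GnRH and 10.10 ± 1.14 in vehicle (SD, n = 4 each). The difference was 0.90 ± 0.45 (SE), with an interval of -0.10 to 1.91, and did not pass (limma adjusted p = 1.00). Leaving out vehicle replicate 2, the lowest array, gave 0.42, and leaving out vehicle replicate 1, the highest vehicle array, gave 1.26.

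The other 2 tested Insig1 probes showed another pattern. ILMN_2606693 read 254, 104, 101 and 65.4 on GnRH arrays 1 to 4, against 350.3, 75.5, 64.5 and 41.4 on vehicle arrays 1 to 4. ILMN_1245272 read 249.7, 108, 106 and 65.6 on GnRH arrays 1 to 4, against 296, 83.9, 73.7 and 49.0 on vehicle arrays 1 to 4. In both groups and on both probes replicate 1 was the highest array and replicate 4 the lowest, and the order of all 8 arrays was the same on the 2 probes except for GnRH replicate 4 and vehicle replicate 3, which lay close together. The log2 changes were 0.32 ± 0.65 and 0.19 ± 0.55 (SE, limma adjusted p = 1.00 for each), with intervals of -1.11 to 1.75 and -1.02 to 1.41. Without vehicle replicate 1 they were 1.04 and 0.77, without GnRH replicate 1 they were -0.04 and -0.15, and without vehicle replicate 4 they were -0.05 and -0.08. The fourth probe, ILMN_2620965, was below background on all 8 arrays, at raw signals of 30.7 to 42.0.

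**Figure D2:**
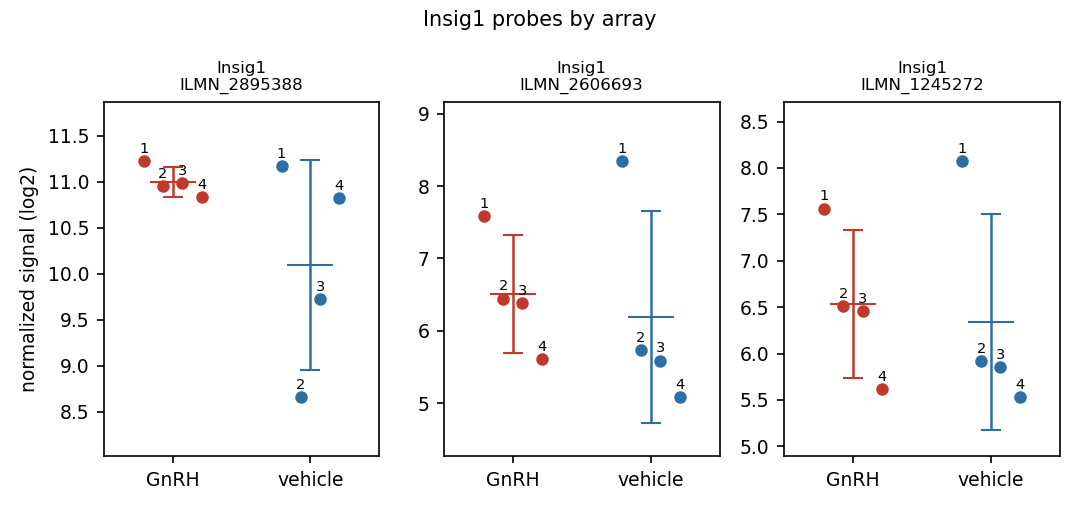
Normalized log2 signal of the 3 tested Insig1 probes on each array (points, numbered by replicate), with the mean and SD of each group (bars, n = 4). On the left panel vehicle replicate 2 is the lowest array, at 8.66, and on the other panels replicate 1 is the highest array of each group.

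Agreement between Insig1 probes was thus close for one pair and loose for the rest. As a description over the 8 arrays, deviations from the group means of ILMN_2606693 and ILMN_1245272 correlated at 0.995, and those of ILMN_2895388 correlated with the other probes at 0.481 and 0.501. All 3 changes were positive, and the changes of ILMN_2606693 and ILMN_2895388 differed by -0.58, with a mean probe difference of -4.49 ± 0.65 in GnRH and -3.91 ± 1.36 in vehicle (SD, n = 4 each). That difference did not pass an exact permutation test over the arrays (two-sided, p = 0.486). Over all 11 pairs of tested probes of a same gene, from Insig1, Insig2, Nsdhl and Sqle, 0 passed (exact permutation test, lowest adjusted p = 0.314). Without adjustment 0 were below 0.05, and the smallest p that 4 against 4 arrays allow is 0.0286. Even at that floor, 1 pair alone could not pass after adjustment, so the count of 0 does not show that probes agree. The probes' positions on the transcript were not used here.

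The other genes of SREBP control had positive changes too, none of which passed (limma adjusted p = 1.00 for each). Scap, the escort of SREBP, averaged 5.81 ± 0.09 in GnRH and 5.56 ± 0.51 in vehicle (log2 signal, SD, n = 4 each), and vehicle replicate 1, at 4.83, lay below the other 7 arrays, at 5.61 to 6.00. Srebf2, which encodes the SREBP that mainly drives cholesterol genes, changed by 0.22 ± 0.28, and Srebf1, which encodes the forms that mainly drive fatty acid genes, by 0.03 ± 0.26 (values that did not pass, SE). After normalization both were highest in replicate 4 of each group and lowest in GnRH replicate 3 and vehicle replicate 2. Srebf2 read 8.90, 9.47, 8.57 and 9.67 on GnRH arrays 1 to 4, against 8.74, 8.56, 8.84 and 9.59 on vehicle arrays 1 to 4. Insig2, the paralogue of Insig1, stood at 0.02 ± 0.19 and 0.11 ± 0.23 on its 2 tested probes. A further probe of Srebf1 and one of Insig2 were below background on all 8 arrays. All 8 tested probes of this role had a positive change, but 5 of them, of Srebf1, Insig1 and Insig2, turned negative when some single array was left out.

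In the mevalonate arm, which makes farnesyl pyrophosphate from acetyl-CoA units, 5 genes were tested and their changes pointed both ways. Pmvk, phosphomevalonate kinase, read 5.99, 6.16, 6.14 and 7.07 on GnRH arrays 1 to 4, against 5.17, 5.52, 5.72 and 5.67 on vehicle arrays 1 to 4 (log2 signal). All 4 GnRH values lay above all 4 vehicle values, which held for 1 of the 33 probes (3.03%) and for 1.53% of all tested probes. The reverse order held for 0 of the 33 and for 0.618% of all tested probes. The change was 0.82 ± 0.24 (SE, limma adjusted p = 0.959), or 0.58 without GnRH replicate 4. With a larger background offset, of 50, the change of Pmvk was 0.53, its lowest under any setting run. Fdps, farnesyl pyrophosphate synthase, and Idi1, isopentenyl pyrophosphate isomerase, each stood at -0.36 (SE 0.19 and 0.21, limma adjusted p = 1.00 for each). Fdps averaged 6.66 ± 0.20 in GnRH and 7.01 ± 0.34 in vehicle, and Idi1 averaged 7.34 ± 0.23 in GnRH and 7.70 ± 0.39 in vehicle (SD, n = 4 each), and for both genes the groups overlapped. Mvd, mevalonate pyrophosphate decarboxylase, stood at -0.03 ± 0.19.

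Hmgcs1, the synthase that feeds the mevalonate arm and whose promoter holds the sterol element above, read 13.49, 13.46, 13.40 and 13.53 on GnRH arrays 1 to 4, against 13.49, 13.53, 13.53 and 12.53 on vehicle arrays 1 to 4. The other arrays were thus nearly level and vehicle replicate 4 stood apart. In raw signal vehicle replicate 4 read 3518, against 10944 to 12542 on the other arrays, where the highest signal of any probe was 8423 on vehicle replicate 4 and 12975 to 13864 on the others. Apart from vehicle replicate 4, Hmgcs1 thus lay near the highest signal of each array. Whether a change could still show at that level was not tested. The change was 0.20 ± 0.22 (SE) and was -0.05 without vehicle replicate 4. Ggps1, which extends farnesyl pyrophosphate, was below background on all 8 arrays with both of its probes.

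In the sterol arm, which turns farnesyl pyrophosphate into cholesterol, 14 probes of 10 genes were tested, with a median change of 0.14 and 10 positive and 4 negative changes, none of which passed. Sqle, squalene epoxidase, an early control point of the arm, read 9.10, 8.95, 8.67 and 9.09 on GnRH arrays 1 to 4, against 9.11, 8.44, 8.50 and 8.12 on vehicle arrays 1 to 4 on its brighter probe. Only vehicle replicate 1 reached the level of the GnRH arrays. The change was 0.41 ± 0.21 (SE, limma adjusted p = 1.00). The dimmer Sqle probe, above background on 3 GnRH and 2 vehicle arrays, stood at 0.13 ± 0.37.

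Lss, lanosterol synthase, was above background on 3 GnRH and 3 vehicle arrays. It had raw signals of 45.1, 56.9, 51.1 and 152 on GnRH arrays 1 to 4, against 42.9, 58.5, 55.0 and 112 on vehicle arrays 1 to 4. Replicate 4 stood far above the others in both groups, and replicate 1 was the lowest in both. The change was -0.02 ± 0.60 with an interval of -1.36 to 1.32, which takes in a 2-fold change either way. Without GnRH replicate 4 it was -0.55 and without vehicle replicate 4 it was 0.51.

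Cyp51, lanosterol 14-alpha-demethylase, read 8.75, 7.95, 9.06 and 8.24 on GnRH arrays 1 to 4, against 9.30, 8.27, 8.22 and 7.57 on vehicle arrays 1 to 4, a change of 0.16 ± 0.35 (SE). Nsdhl, a sterol dehydrogenase that acts with Msmo1 and Hsd17b7 in removing methyl groups, had 4 tested probes. Of these, ILMN_2594521, ILMN_2594525 and ILMN_2725402 stood at 0.28 ± 0.40, 0.19 ± 0.39 and -0.17 ± 0.38 and were highest in replicate 1 of each group. ILMN_2594521 read 6.53, 5.78, 6.08 and 5.49 on GnRH arrays 1 to 4, against 6.92, 5.83, 5.13 and 4.87 on vehicle arrays 1 to 4. The fourth, ILMN_2958207, lay between 5.38 and 5.91 on all arrays and stood at 0.03 ± 0.16. As a description over the 8 arrays, deviations of the first 3 probes from their group means correlated with each other at 0.940 to 0.985, and with those of ILMN_2958207 at -0.07 to 0.17.

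None of the remaining genes of the arm passed. Dhcr7, the last reductase of the pathway, read 10.88, 11.10, 10.47 and 11.49 on GnRH arrays 1 to 4, against 11.00, 10.34, 10.34 and 11.60 on vehicle arrays 1 to 4. Its change was 0.16 ± 0.30. Ebp, a sterol isomerase, stood at 0.30 ± 0.22, Msmo1, a methylsterol oxidase, at 0.18 ± 0.17, Hsd17b7 at 0.11 ± 0.13 and Sc5d, a sterol desaturase, at -0.02 ± 0.22 (log2 change ± SE, limma adjusted p = 1.00 for each). Tm7sf2, a sterol reductase, had the smallest spread of all 33 probes between vehicle arrays. It read 4.79, 4.85, 4.74 and 4.90 on GnRH arrays 1 to 4, against 4.97, 4.73, 4.72 and 4.87 on vehicle arrays 1 to 4, close to background, and its interval was -0.29 to 0.28.

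Among genes of sterol movement and storage, Scarb1 had the largest fitted change of the 33 probes. Scarb1 encodes SR-BI, the receptor that takes cholesterol from high-density lipoprotein into steroid-making and other cells. It read 6.07, 6.11, 5.21 and 7.09 on GnRH arrays 1 to 4, against 4.76, 4.66, 4.77 and 5.75 on vehicle arrays 1 to 4. GnRH replicate 3 lay below vehicle replicate 4, and the other GnRH arrays lay above every vehicle array. The change was 1.13 ± 0.37 (SE), 2.19-fold, with an interval of 0.31 to 1.95, and it did not pass (limma adjusted p = 1.00). It was 0.81 without GnRH replicate 4 and 1.44 without GnRH replicate 3. Vehicle arrays 1 to 3 lay close to background, at raw signals of 43.1 to 48.6. With a larger background offset, of 50, the change was 0.67, its lowest under any setting run. A limma fit with replicate number as a block gave the same change as the main fit, with an adjusted p of 0.0283. The labels do not say whether same-numbered arrays were handled as pairs. Stard4, a cytosolic sterol carrier, stood at 0.04 ± 0.18 and Npc2, which takes part in moving cholesterol out of lysosomes, at 0.02 ± 0.16.

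**Figure D3:**
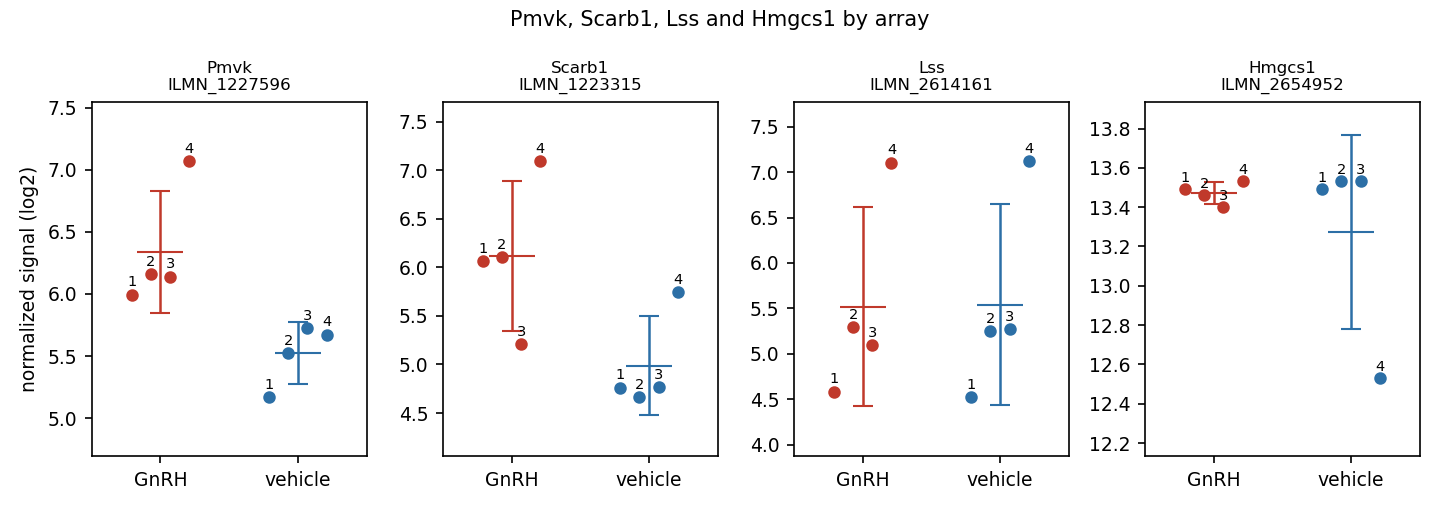
Normalized log2 signal of Pmvk, Scarb1, Lss and Hmgcs1 on each array (points, numbered by replicate), with the mean and SD of each group (bars, n = 4). The Pmvk groups do not overlap, Lss is highest in replicate 4 of both groups, and Hmgcs1 is apart in vehicle replicate 4 alone.

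No gene of fatty acid synthesis and desaturation passed. Scd1 and Scd2, stearoyl-CoA desaturases that put the double bond into oleate, stood at 0.03 ± 0.17 and 0.15 ± 0.19, and Acaca, acetyl-CoA carboxylase, at -0.10 ± 0.21 (log2 change ± SE, limma adjusted p = 1.00 for each). Scd1 averaged 10.55 ± 0.21 in GnRH and 10.53 ± 0.25 in vehicle, and Scd2 averaged 10.49 ± 0.24 in GnRH and 10.33 ± 0.31 in vehicle (log2 signal, SD, n = 4 each). The 95% intervals of all 3 probes stayed within a 2-fold change. Fasn, fatty acid synthase, was above background on 0 GnRH arrays and 1 vehicle array and was not tested.

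Spread between the vehicle arrays was wide for many of these genes. The median SD of the 33 probes over the 4 vehicle arrays was 0.41 on the log2 scale, beside 0.28 for all tested probes, while over the 4 GnRH arrays it was 0.24, beside 0.22. Of the 33 probes 9 (27.3%), from 5 genes, lay above the 95th percentile of all tested probes (an SD of 0.70), namely the 3 Insig1 probes, 3 Nsdhl probes, Cyp51, Lss and the dimmer Sqle probe. The widest were the Insig1 probes, at 1.46 for ILMN_2606693, 1.16 for ILMN_1245272 and 1.14 for ILMN_2895388, each above the 99th percentile. ILMN_2895388 lay at percentile 98.3 with median scaling and 98.1 without between-array normalization. Vehicle replicate 1 carried much of this spread. Without it 3 of the 33 probes lay above the 95th percentile, the median SD was 0.29 beside 0.23 for all tested probes, and the 2 dimmer Insig1 probes fell to 0.34 and 0.21, while ILMN_2895388 stayed at 1.09.

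**Figure D4:**
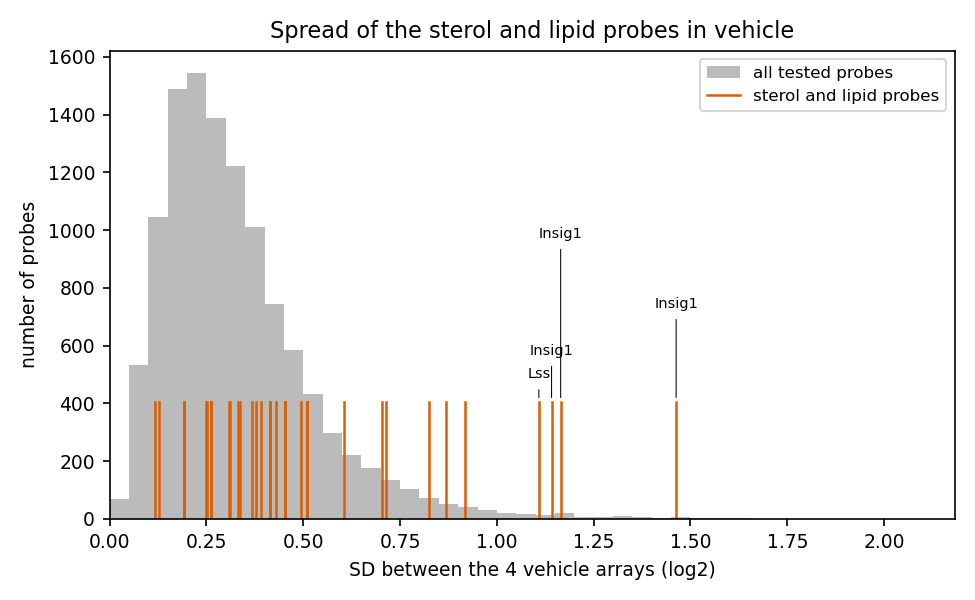
Histogram of the SD between the 4 vehicle arrays (log2, x axis) over all tested probes (grey, number of probes on the y axis), with the 33 sterol and lipid probes as orange lines. The lines of Insig1 and Lss lie far to the right of the bulk, between 1.11 and 1.46.

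Between arrays of a group several probes had like patterns. One set was highest in replicate 1 of both groups and held the dimmer Insig1 probes, 3 Nsdhl probes, the dimmer Sqle probe, Ebp and 1 Insig2 probe. Their deviations from the group means correlated with those of Insig1 ILMN_2606693 above 0.8, which held for 7 of 32 other member probes (21.9%), beside 8.89% of all tested probes. The 7 came from 5 genes, counting Insig1 itself and 3 probes of Nsdhl, so the share counts probes and not separate genes. Cyp51 lay just below that limit, at 0.795, and the brighter Sqle probe at 0.793. Another set was, after normalization, highest in replicate 4 of both groups, except for Pmvk, which was highest in vehicle replicate 3 among the vehicle arrays. Beside Lss it held Srebf2, Scarb1, Scd1 and Pmvk, 4 of 32 other member probes whose deviations correlated with those of Lss above 0.8 (12.5%), beside 7.43% of all tested probes, a share near the background. In raw signal Lss, Srebf2 and Scarb1 were likewise highest in replicate 4 of both groups. Scd1 and Pmvk were instead lowest, among the vehicle arrays, on vehicle replicate 4, the dimmest array, at raw signals of 1064 and 52.4. Scd1 also read 1790 on GnRH replicate 1, above 1736 on GnRH replicate 4. The deviations of Scd1 ran opposite to the first set, at -0.857. In the sample numbers of the labels the 2 arrays of replicate 1 come first and those of replicate 4 last, so that this order runs through both groups alike. With sample number added to the fit, a setting chosen after seeing the data, the log2 changes were the same. This follows from the design, since the sample numbers have the same mean in both groups. The SE was 0.33 in place of 0.65 for Insig1 ILMN_2606693, 0.29 in place of 0.55 for ILMN_1245272 and 0.33 in place of 0.60 for Lss. It was 0.46 in place of 0.45 for ILMN_2895388. The dimmer Insig1 probes and Lss were picked for following this order, so their smaller SE is no separate test of it. The limit of 0.8 was chosen after the values were seen.

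**Figure D5:**
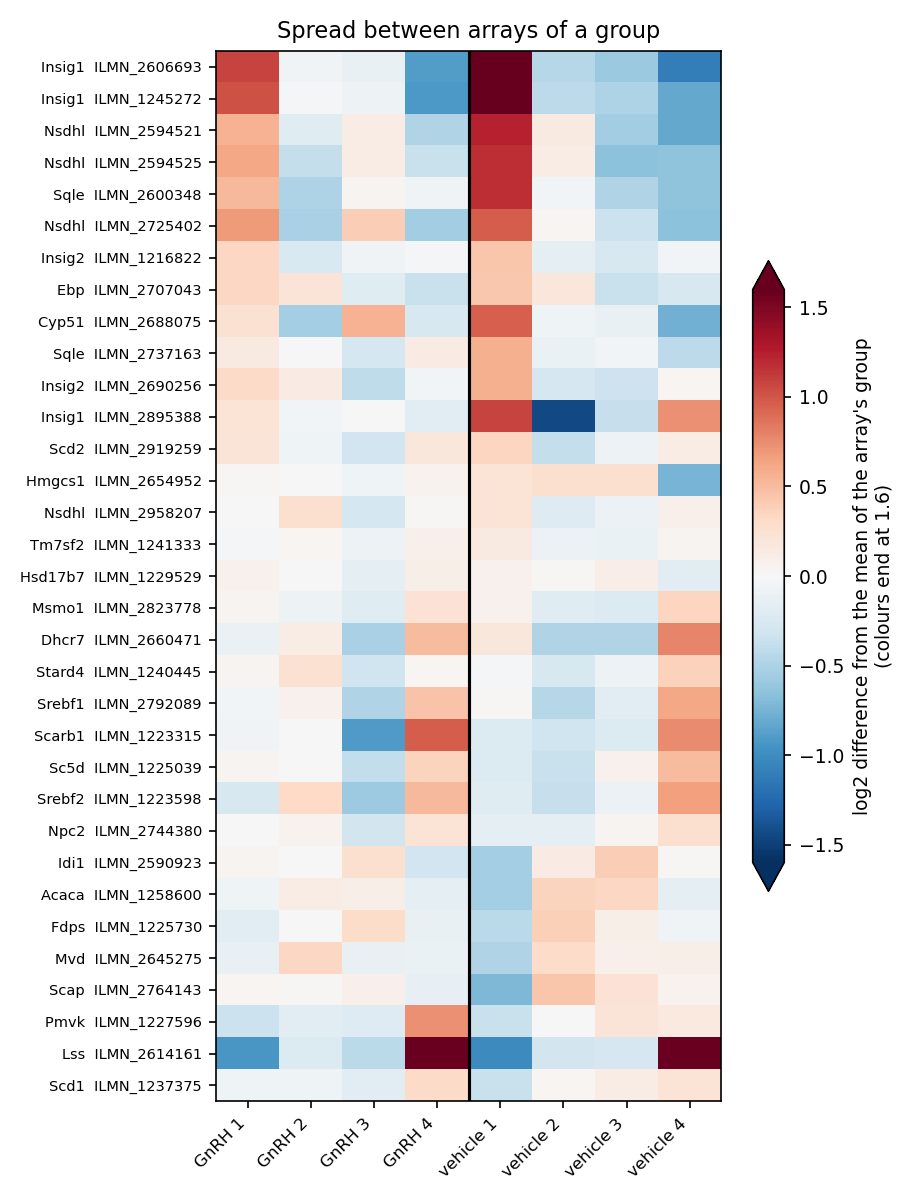
Difference of each array from the mean of its group on the log2 scale (colour) for the 33 tested probes (rows, ordered by likeness to Insig1 ILMN_2606693) and the 8 arrays (columns, GnRH left of the line and vehicle right). The upper rows are red in replicate 1 of both groups, and Lss, near the bottom, is red in replicate 4 of both.

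Among further genes of sterol and lipid metabolism none passed either. Of 53 listed genes 41 had a probe, and 45 probes of 31 genes were tested. None was called higher or lower after GnRH (limma, 0 and 0 of 45), where 0.265% of all tested probes were called higher and 0.0% lower. At an unadjusted p below 0.05 in that limma fit the count was 0 of 45. Of all tested probes 2.09% were higher and 0.813% lower at that limit. The median log2 change was 0.07, beside -0.01 over all tested probes. Of the 45 intervals 43 (95.6%) stayed within a 2-fold change, beside 93.9% of all tested probes, a share near the background. The lowest unadjusted p-values belonged to Mid1ip1, a regulator of acetyl-CoA carboxylase, at 0.57 ± 0.30, Elovl1, a fatty acid elongase, at 0.35 ± 0.19, Mbtps1, the first of the proteases that cut SREBP, at 0.31 ± 0.17, and Erlin2, which takes part in sterol-controlled degradation at the endoplasmic reticulum, at 0.31 ± 0.17 (log2 change ± SE, limma adjusted p = 1.00 for each). Other tested probes of these genes stood at 0.27 ± 0.19 and 0.07 ± 0.14 for Elovl1, 0.17 ± 0.25 and -0.08 ± 0.21 for Mbtps1, and -0.003 ± 0.16 for Erlin2, so that the Mbtps1 and Erlin2 probes did not share a direction.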

How the data were processed

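RNA from an ELAVL1 pull-down was measured on 8 Illumina bead arrays, grouped and numbered by the sample titles. Per the file headers, the authors deposited a linear bead signal intensity and a detection p-value for each probe. A deposited table of processed intensity values, made by a method that the sources used here do not give, served as an alternative. No scanner software or genome build was found in the labels. The platform annotation gave 1 symbol to 23978 of 25697 probes, and updating through RefSeq changed no symbol.

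Background was corrected by normexp, using detection p-values, with an offset of 16, followed by quantile normalization and log2 (neqc, limma 3.58.1 under R 4.3.3). The 11318 probes (44.0%) detected at p below 0.05 on 4 or more of the 8 arrays were fitted with lmFit and eBayes, GnRH over vehicle, without a block. P-values were adjusted over all of them (Benjamini-Hochberg, 0.05). The fit was tested on simulated data. Quantile normalization removes differences in total yield between pull-downs. The number of arrays limits the precision, with a median SE of 0.18 for a log2 change.

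The members and lists were chosen with earlier results of these data known, so lists get counts and medians and no test. By the rule for named genes all members are named. Values on every array are given for Insig1, for the 4 members with the lowest p, for members whose probes differ in direction by more than 0.5 (there were none), and for the probes of largest and smallest vehicle SD. Those of Hmgcs1, Lss, Cyp51, Nsdhl, Dhcr7 and Srebf2 were added after their values were seen. Of the further pathway genes the 4 with the lowest p are named.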

Additional observations from a re-analysis of the deposited data

Results flagged for a closer look

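In 5 of 66 groups of 4 arrays, 1 array of a member probe stood apart from the other 3 by Dixon's ratio at its 95% critical value (7.58%, where chance alone gives about 1 in 20). Hmgcs1 stood at 12.53 in vehicle replicate 4, against 13.49 to 13.53 on the other vehicle arrays (log2 signal). Scarb1 stood at 5.75 in vehicle replicate 4, against 4.66 to 4.77. These are normalized values, and in raw signal Scarb1 read 54.1 on that array, the dimmest, against 43.1 to 48.6. Insig1 ILMN_1245272 stood at 8.07 in vehicle replicate 1, against 5.53 to 5.92. Pmvk stood at 7.07 in GnRH replicate 4, against 5.99 to 6.16 on the other GnRH arrays, and Mvd stood at 5.65 in GnRH replicate 2, against 5.19 to 5.21.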

How the results depend on the processing

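Under 20 alternative settings 0 member probes were called lower, and 0 were called higher except with the replicate block, which called 1, Scarb1 (log2 change 1.13, limma adjusted p = 0.0283; over its other settings the adjusted p ran from 0.0905 with array weights to 1.00). Same-numbered GnRH and vehicle arrays deviated together for numbers 1, 3 and 4 (correlation 0.723, 0.256 and 0.649) and not for number 2 (-0.227). GnRH replicate 3 correlated best with vehicle replicate 2. Same-numbered arrays are neighbours in sample number, but the labels do not say whether they were handled as pairs. Whether the fit with or without the block is the better one was not tested. The further pathway list had 0 calls in either direction under every setting run. Of the 11 probe pairs 0 passed under each of the 5 settings tried, where 1 pair alone could not pass after adjustment. The members' median log2 change was 0.03 to 0.17 with single arrays left out, 0.23 with array weights (-0.01 for all tested probes), 0.25 with median scaling (0.07) and 0.29 without between-array normalization (0.11). Of 658 recomputed member changes 66, from 20 probes, had the opposite sign, and the largest of these probes' changes was 0.32. Pmvk, Scarb1 and Insig1 ILMN_2895388 kept a positive change under every setting run. Some settings cannot alter a log2 change, namely either detection filter, the intensity trend, the replicate block and sample number. For the 22 genes with 1 tested probe the mean over probes cannot either. The share of turned signs is thus held down by values that could not turn. The members' median vehicle SD was 0.50 without between-array normalization (0.37 for all tested probes) and 0.29 to 0.46 with single vehicle arrays left out, an alternative chosen after seeing the data, as was sample number as a covariate.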
